A study of Homo sapiens with 36 samples.

Results

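The genes described here are 39 human genes of glucose transport, glycolysis, lactate and pyruvate handling, oxygen sensing and the hypoxia response, taken as a named list. All 39 were found among the 60628 gene rows of the deposited table, and all 39 were among the 21138 genes with enough counts to be tested. A member can enter the tested set through 1 group alone: carbonic anhydrase CA9 and the hormone gene ADM, for example, had 0 counts in every MyLa control library.

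Glycolysis splits glucose into pyruvate in the cytosol, and lactate dehydrogenase turns pyruvate into lactate when it is not passed on to the mitochondria. When oxygen is low, prolyl hydroxylases (EGLN1, EGLN3) stop marking HIF1A, the oxygen-sensitive subunit of hypoxia-inducible factor, for degradation, and the stabilised factor binds short DNA motifs beside glucose transporters, glycolytic enzymes and genes such as CA9 and VEGFA. Proliferating T cells and T-cell leukaemias use glycolysis heavily even when oxygen is present.

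The study sequenced polyadenylated RNA of 7 human lines of T-cell cancers in 36 libraries. In 18 libraries GATA3, a transcription factor of T-cell development, was knocked down by a short hairpin RNA; the other 18 carried a scrambled hairpin and have the genotype WT in the labels. The lines labelled as cutaneous T lymphocytes, here called CTCL lines, were H9 (3 knockdown and 2 control libraries), MyLa (labelled MylaCD4+, 3 and 3) and Mac1 (2 and 2). The lines labelled as acute lymphoblastic leukemia, here called T-ALL lines, were THP6 (2 and 3), MOLT4 (2 and 2), CCRF-CEM (3 and 3) and SUP-T1 (3 and 3). No label says that the libraries of a group came from separate cultures or hairpins, so p-values measure the spread between libraries, which may be technical. Each line is a single tumour line, and in bulk RNA fewer cells of a kind and less RNA per cell cannot be told apart.

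Library totals ran from 18.62 M to 50.63 M counts, and levels are given as CPM, counts scaled to library size, on totals adjusted by the TMM method. CD3D, a T-cell receptor subunit that defines T cells, averaged 129 to 558 CPM in 6 lines but was at 0 in Mac1 controls, and CD3E was at 0.345 CPM in MyLa. Other T-cell markers were as uneven. CD2 ran from 0.232 CPM in THP6 to 163 CPM in Mac1, and CD4 from 0.0182 CPM in MyLa, labelled MylaCD4+, to 337 CPM in SUP-T1. CD5 and CD7 were at 0.0275 and 0.0188 CPM in MyLa but reached 244 CPM in H9 and 188 CPM in MOLT4. The B-cell marker MS4A1 and the erythroid marker HBB were at or near 0 in every line, while B-cell CD79A reached 211 CPM and epithelial EPCAM 82.4 CPM in H9, and myeloid CSF1R reached 48.1 CPM in Mac1. Knockdown library 2 of THP6 stood apart from its replicate: the pair's Pearson correlation across genes was 0.9805, the lowest of any replicate pair, and its scatter per gene was 158.2 times that of Poisson counting. CCRF-CEM control 2 also lay apart from its replicates. Of the 39 genes, 15 have named processed pseudogenes (62 for GAPDH and 39 for BNIP3), between which reads may be split, and 20 have exons that overlap a gene on the other strand, which counting without strand cannot tell apart.

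Short stretches around the transcription starts are shown for genes that carry the results below: CA9, ALDOC and ENO2, which were higher in Mac1 knockdown libraries, PDK1 and EGLN1, which were lower in MOLT4 knockdown libraries, and LDHB, whose response was not called different among lines. Each is RefSeq sequence of GRCh38.p14, 250 bases before to 50 bases after the start, read 5′ to 3′ on the gene's strand, with the core letters of the hypoxia response element (ACGTG or GCGTG, and CACGT or CACGC where they lie on the other strand) in capitals. They cover chr9:35673678-35673977 (plus strand) for CA9, chr17:28576846-28577145 (minus strand) for ALDOC, chr12:6914330-6914629 (plus strand) for ENO2, chr2:172555840-172556139 (plus strand) for the second listed start of PDK1, chr1:231422238-231422537 (minus strand) for EGLN1 and chr12:21657793-21658092 (minus strand) for LDHB.
CA9: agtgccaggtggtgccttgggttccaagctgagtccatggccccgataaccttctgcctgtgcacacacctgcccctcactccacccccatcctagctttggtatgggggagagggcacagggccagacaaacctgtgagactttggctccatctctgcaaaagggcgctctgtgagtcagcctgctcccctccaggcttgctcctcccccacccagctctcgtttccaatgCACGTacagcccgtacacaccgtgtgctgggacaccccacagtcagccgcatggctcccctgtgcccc
ALDOC: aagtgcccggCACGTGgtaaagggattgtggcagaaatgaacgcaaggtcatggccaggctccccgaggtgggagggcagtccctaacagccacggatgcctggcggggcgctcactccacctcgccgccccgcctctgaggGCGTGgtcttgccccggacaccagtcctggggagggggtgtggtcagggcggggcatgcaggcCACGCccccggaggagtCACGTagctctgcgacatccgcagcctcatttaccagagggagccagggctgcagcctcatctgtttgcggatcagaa
ENO2: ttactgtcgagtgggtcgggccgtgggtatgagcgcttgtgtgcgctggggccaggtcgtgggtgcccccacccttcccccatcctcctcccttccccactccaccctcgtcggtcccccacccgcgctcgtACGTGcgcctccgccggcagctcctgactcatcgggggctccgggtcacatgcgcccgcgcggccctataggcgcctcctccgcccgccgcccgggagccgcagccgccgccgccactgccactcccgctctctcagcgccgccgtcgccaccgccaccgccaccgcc
PDK1: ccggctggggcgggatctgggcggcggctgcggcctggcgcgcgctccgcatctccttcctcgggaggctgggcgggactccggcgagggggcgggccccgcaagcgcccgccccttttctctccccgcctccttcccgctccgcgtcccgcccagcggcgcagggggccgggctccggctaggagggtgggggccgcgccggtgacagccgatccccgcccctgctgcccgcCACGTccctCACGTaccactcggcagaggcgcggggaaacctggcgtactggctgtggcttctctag
EGLN1: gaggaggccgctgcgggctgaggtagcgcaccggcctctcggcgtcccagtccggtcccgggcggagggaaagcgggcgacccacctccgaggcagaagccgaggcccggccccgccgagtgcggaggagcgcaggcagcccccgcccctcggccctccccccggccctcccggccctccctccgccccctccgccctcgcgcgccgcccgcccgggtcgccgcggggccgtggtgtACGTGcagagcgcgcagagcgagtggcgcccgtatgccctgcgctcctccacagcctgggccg
LDHB: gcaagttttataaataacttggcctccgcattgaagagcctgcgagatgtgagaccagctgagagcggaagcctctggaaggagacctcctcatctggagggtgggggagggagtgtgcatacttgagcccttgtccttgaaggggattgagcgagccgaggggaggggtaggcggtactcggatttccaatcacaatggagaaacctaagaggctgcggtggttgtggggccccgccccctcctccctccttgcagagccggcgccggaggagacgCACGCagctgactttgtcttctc

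CA9 holds 1 match, whose first base lies 18 bases before the start, and ALDOC holds 5, of which the pair farthest upstream overlap as one palindrome. In PDK1 both matches lie within 17 bases before the start, in EGLN1 the match begins 13 bases before it, and in LDHB the match lies after the start. Of the 39 genes, 35 have an entry in the table, with 65 starts, of which 44 (67.7%) hold the letters. The same search found them at 17012 of the 35116 starts of all genes (48.4%). A match of 5 letters in a window of 300 bases is a description of the sequence and not a binding site.

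Before the metabolic genes, GATA3 itself was read as a check of the labels. GATA3 fell in 6 lines, with log2 fold changes of -1.45 in MOLT4, -1.25 in H9, -1.15 in Mac1, -1.06 in THP6, -0.97 in CCRF-CEM and -0.72 in MyLa (edgeR quasi-likelihood test, Benjamini-Hochberg adjusted p at most 1.31e-06 in each). In SUP-T1 it went against the labels: the 3 libraries labelled knockdown had 81.3, 77.2 and 86.6 CPM, against 24.4, 23.6 and 24.2 CPM in the libraries labelled control. SUP-T1 is therefore described by its labels only and left out of every mean of responses over lines. In THP6, GATA3 stood at 55.7 CPM in knockdown 1 and 73.5 CPM in knockdown 2, below the controls at 144.9, 125.3 and 133.7 CPM.

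**Figure D1:**
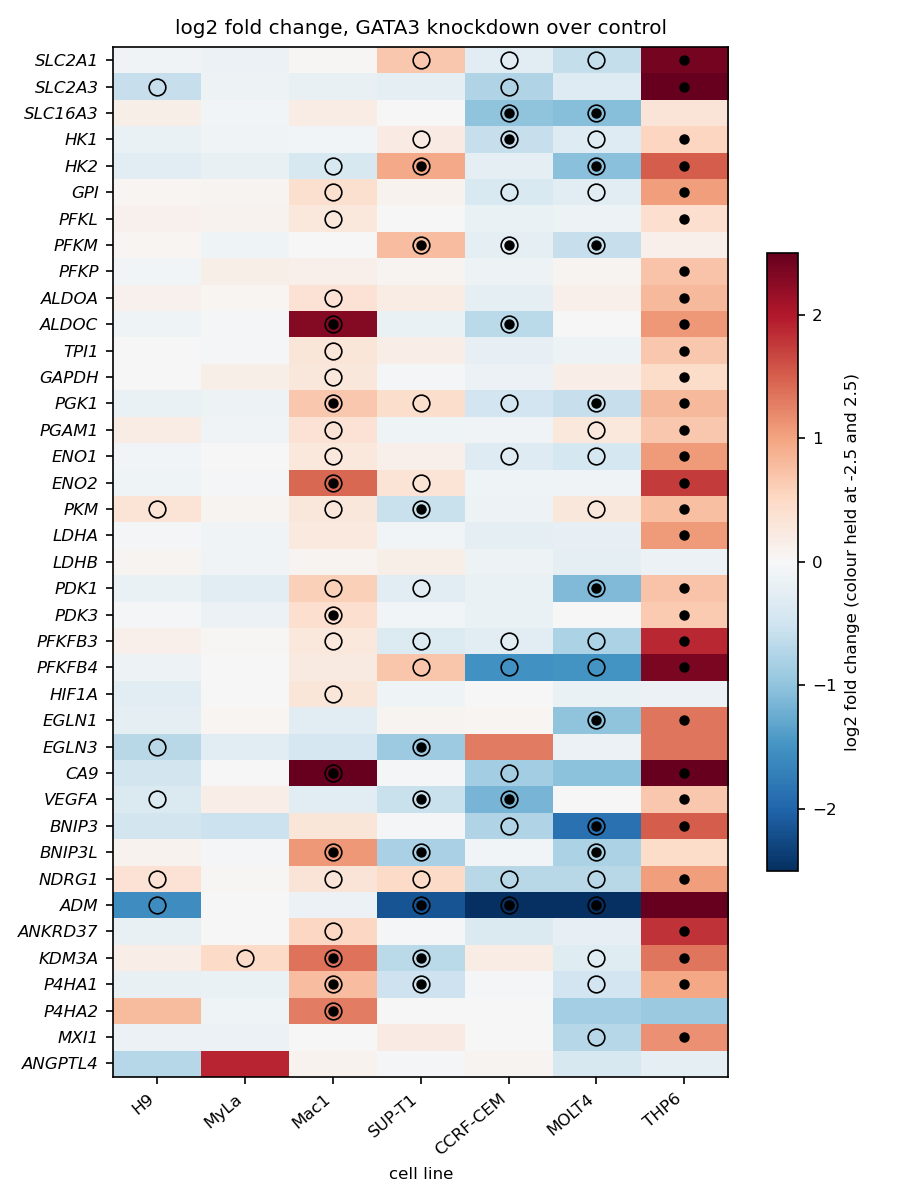
Fold change of each gene, knockdown over control, on the log2 scale in each of the 7 lines, with colour held at the ends of the scale. Filled dots mark genes past an adjusted p of 0.05 in the fit of all 36 libraries. Open rings mark those past it without THP6 knockdown 2. The THP6 column holds 30 dots and no ring, but without that library it has a single knockdown library, which cannot be tested. SUP-T1 columns follow labels that GATA3 goes against.

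By line, the list moved in different directions. In the fit of all libraries 9 genes rose and none fell in Mac1, where 5.54% of all tested genes rose and 2.35% fell. In MOLT4 none rose and 9 fell, where 8.88% of all tested genes rose and 10.3% fell. In CCRF-CEM none rose and 6 fell, where 3% of all tested genes rose and 5.43% fell. In THP6 30 rose and none fell, where 5.56% of all tested genes rose and 1.84% fell. In H9 and MyLa none was called in either direction, where at most 1.02% of all tested genes were called in either direction. The THP6 count rests on a single library, which is shown first because it also sets the errors of all other lines.

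In THP6, knockdown library 2 had far more RNA of glucose transporters, glycolytic enzymes and hypoxia-induced genes than any other library of the line, and knockdown library 1 did not. Among the 35 genes at 1 CPM or more in THP6, 31 were at least 1.5-fold above the highest control in knockdown 2, where 12.1% of all genes at that level were (1577 of 13038). In knockdown 1 only 1 of the 35 was, CA9, where 0.422% of all genes were. The median gene of the list stood 1.46 above the control mean on the log2 scale in knockdown 2 and 0.09 above it in knockdown 1. A single library cannot be tested, so these are descriptions.

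The glucose transporters were farthest apart. SLC2A1 (GLUT1), the widely expressed glucose importer, had 43.5 CPM in knockdown 1 and 456.3 CPM in knockdown 2, against 48.0, 46.9 and 47.2 CPM in controls. SLC2A3 (GLUT3), a transporter of high glucose affinity, had 33.0 CPM and 526.7 CPM, against 31.6, 25.3 and 29.03 CPM in controls. For both genes knockdown 1 lay at the level of the controls and knockdown 2 stood alone. SLC16A3 (MCT4), which exports lactate, had 19.9 and 26.7 CPM in knockdown libraries 1 and 2, against 19.5, 19.0 and 17.6 CPM in controls. Summed over these 3 transport genes, knockdown 2 reached 1010 CPM, knockdown 1 96.4 CPM and the controls 91.2 to 99.1 CPM.

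Enzymes along the pathway showed the same library. HK2, the inducible hexokinase that traps glucose in the cell, had 99.6 CPM in knockdown 1 and 527.7 CPM in knockdown 2, against 116.8, 101.7 and 111.3 CPM in controls. ENO2, the enolase isozyme typical of neurons, had 92.6 and 484.5 CPM, against 85.4, 86.7 and 85.6 CPM in controls. The bifunctional enzymes PFKFB3 and PFKFB4, which set the level of the activator of phosphofructokinase, had 320.0 and 249.7 CPM in knockdown 2, 51.7 and 27.5 CPM in knockdown 1 and at most 52.1 and 31.6 CPM in any control. Of the 15 glycolytic enzymes 14 were called higher in the fit of all libraries, the exception being PFKM, the muscle-type phosphofructokinase, at 23.4 and 26.6 CPM in knockdown 1 and 2, against 21.2, 24.1 and 23.8 CPM in controls. Summed glycolytic enzymes came to 32590 CPM in knockdown 2, 15590 CPM in knockdown 1 and 13130 to 15710 CPM in controls, and the whole list took 4.14% of all counts in knockdown 2 and 2.00% in knockdown 1.

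The lactate dehydrogenase subunits split. LDHA, the subunit that favours lactate formation, had 1139 CPM in knockdown 1 and 2812 CPM in knockdown 2, against 833.9, 1061 and 955.5 CPM in controls. LDHB, the subunit common in oxidative tissues, had 1175 and 802.8 CPM, against 993.8, 1189 and 1105 CPM in controls, so knockdown 2 was the lowest library. Per kilobase of exon the LDHB to LDHA ratio was 0.594 in knockdown 2, 2.15 in knockdown 1 and 2.33 to 2.48 in controls. The ratio of HK2 to HK1, the constitutive hexokinase, was 1.91 in knockdown 2, 0.731 in knockdown 1 and 0.734 to 0.812 in controls.

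Among oxygen-sensing genes, HIF1A RNA did not follow the others: it stood at 101.8 CPM in knockdown 1 and 75.8 CPM in knockdown 2, against 116.7, 90.5 and 89.1 CPM in controls, with knockdown 2 again the lowest. EGLN1, the hydroxylase that marks HIF1A and is itself induced by HIF, had 33.4 and 158.7 CPM, against 42.3, 34.9 and 37.2 CPM in controls. BNIP3, a mitophagy receptor, had 23.7 and 154.7 CPM, against 24.9, 37.2 and 32.1 CPM in controls. ANKRD37 had 3.78 and 18.2 CPM, against 3.48, 3.17 and 2.71 CPM in controls. CA9, which hydrates carbon dioxide at the cell surface, had 97 and 506 counts in knockdown 1 and 2, against 33, 58 and 42 counts in controls. PDK1, PDK3, VEGFA, NDRG1, KDM3A, P4HA1 and MXI1 were also called higher in the fit of all libraries, at 51.2 (PDK3) to 226.2 CPM (KDM3A) in knockdown 2 and 23.5 (NDRG1) to 79.1 CPM (VEGFA) in knockdown 1. For CA9, ANKRD37, KDM3A, P4HA1, PDK1 and PDK3 both knockdown libraries exceeded every control, whereas for EGLN1, BNIP3, NDRG1 and MXI1 knockdown 1 lay below all 3.

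**Figure D2:**
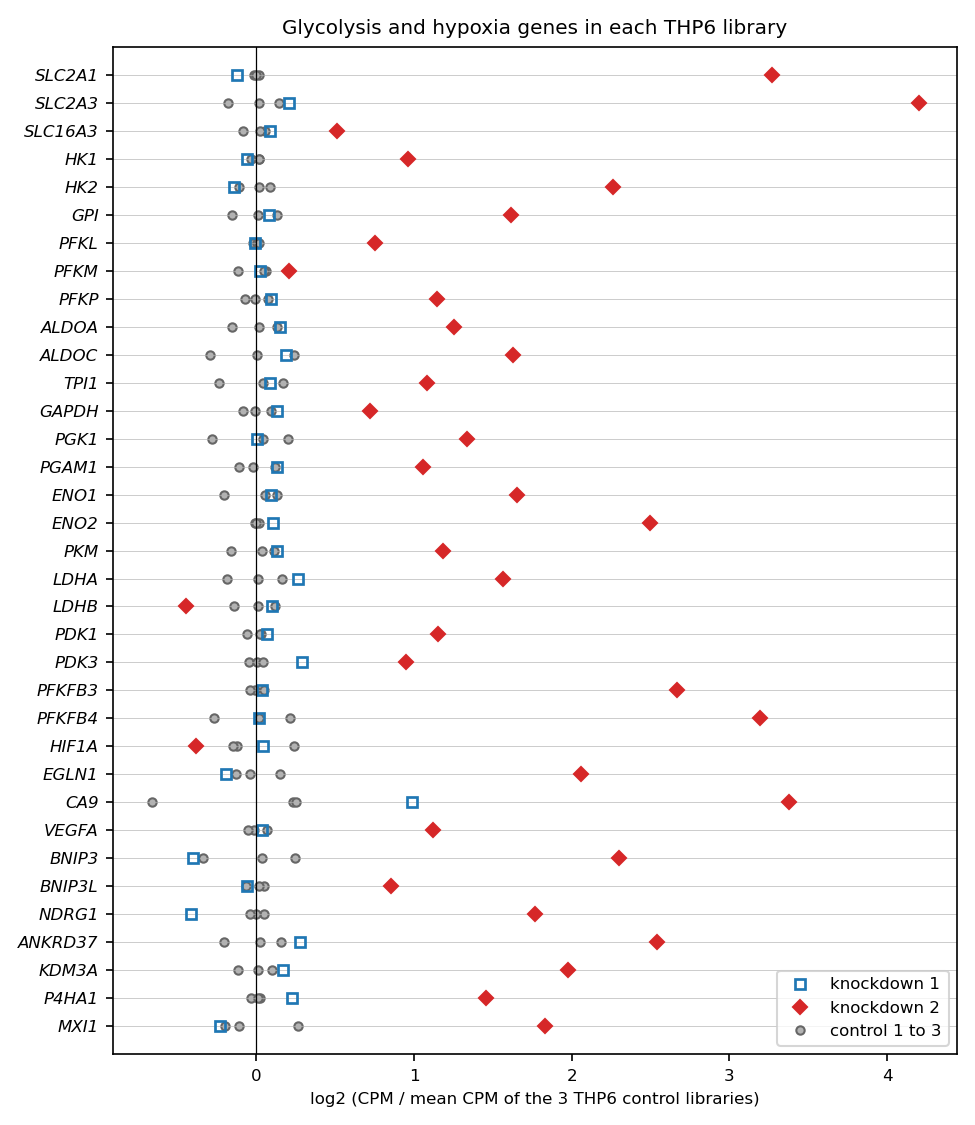
Level of 35 genes in each THP6 library as log2 of its CPM over the mean of the 3 controls, with knockdown 1 as squares, knockdown 2 as diamonds and controls as circles. Knockdown 2 lies to the right of all other libraries for most genes and to the left for LDHB and HIF1A. Knockdown 1 lies among or near the controls, farthest from them for CA9 (above) and NDRG1 (below).

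In the fit of all libraries, 30 of the 39 genes were called higher in THP6 knockdown over control and none lower, where 5.56% of all tested genes were called higher and 1.84% lower (edgeR quasi-likelihood test, adjusted p under 0.05). The largest called change was that of SLC2A3, at 3.29 on the log2 scale (SE 0.459, adjusted p = 9.06e-05). The 2 knockdown libraries, at 33.0 and 526.7 CPM of SLC2A3, lay farther apart than their mean lay from any control. Without knockdown 2 the same test called 0 of the 39, 6 of them at an unadjusted p under 0.05, where 0.105% of all genes were called higher and 0.233% lower. A fit of the THP6 libraries alone called 0% of all genes, with GATA3 not called either, and so says nothing of the 39, of which 16 had an unadjusted p under 0.05. Of 9 T-cell markers, CD3D, CD3E, CD3G and CD2 were lower in knockdown 2 than in knockdown 1, at 247 and 274 CPM for CD3D and 74.6 and 149 CPM for CD3G. CD247, CD5, CD7, CD4 and CD8A were higher in it, at 113 and 70.3 CPM for CD247 and 165 and 127 CPM for CD5. Among the defining markers of other cells reported here, CD79A stood at 13.6 and 12.6 CPM in knockdown 2 and 1, ITGAM at 14.3 and 11 CPM, LYZ at 0.0349 and 0 CPM, and MS4A1, HBB, EPCAM and KRT18 at 0 in both. In the header of the deposited table THP6 knockdown 2 is the last column, in position 36, directly after the 2 Mac1 controls in positions 34 and 35 and apart from the other THP6 libraries in positions 30 to 33. What that order means is not stated, and its part in the results was not tested.

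Hypoxia-induced genes outside the list followed the same library. Of 30 such genes, 22 were at 1 CPM or more in THP6, and 17 of these were at least 1.5-fold above the highest control in knockdown 2, against 0 in knockdown 1. MIR210HG, host of the hypoxia-induced microRNA miR-210, had 2.84 CPM in knockdown 1 and 75.8 CPM in knockdown 2, against 2.504, 2.932 and 2.657 CPM in controls. The transcriptional repressor BHLHE40 had 40.1 and 451.8 CPM, against 48.3, 44.2 and 45.1 CPM in controls. PPFIA4 had 7.74 and 115 CPM, and the mTOR inhibitor DDIT4 320.2 and 1617 CPM. In the fit of all libraries 20 of the 30 were called higher and 0 lower, and of the 7 tested genes of the pentose phosphate pathway 0 were called. EPAS1 was the 1 other pathway gene called lower, at 15.5 and 15.8 CPM in knockdown 1 and 2 and a mean of 21.3 CPM in controls (SD 3.31, n = 3).

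Because all 14 groups share one estimate of the spread of each gene, the distance between the THP6 knockdown libraries widened the errors of these genes in every other line. The median standard error of the 39 genes in MOLT4 was 0.22 with all libraries and 0.102 without THP6 knockdown 2, while that of all tested genes was 0.207 and 0.177. In Mac1 the members' values were 0.199 and 0.101, and in CCRF-CEM 0.172 and 0.0812. Outside THP6 no member's fold change moved by more than 0.0223 on the log2 scale between the 2 fits. Counts in each line are therefore given from both. The fit without that library was chosen after the data were seen and tests 21898 genes.

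In MOLT4 knockdown libraries HK2, PFKM, PGK1, PDK1, SLC16A3, BNIP3, BNIP3L, EGLN1 and ADM were lower than in controls. These were 3 of 15 glycolytic enzymes, 1 of 3 transport genes, 1 of 4 lactate and pyruvate genes, 1 of 3 oxygen-sensing genes and 3 of 12 hypoxia-induced genes. All 9 called genes fell, where 10.3% of all tested genes fell and 8.88% rose. The median of the 39 genes was -0.33 on the log2 scale, beside 0 over all tested genes. Without THP6 knockdown 2, 19 fell and 2 rose, where 13.6% of all genes fell and 11.5% rose, and a fit of the MOLT4 libraries alone called 21 lower and 3 higher, where 41.2% of all genes were called. All 9 genes were among the 19.

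HK2 had 66.2 and 74.5 CPM in MOLT4 knockdown libraries, against 140.8 and 150.3 CPM in controls, a fall to 0.483-fold (log2 -1.05, SE 0.333, adjusted p = 0.0248). PGK1, which makes the first ATP of glycolysis, had 498.5 and 491.0 CPM, against 722.8 and 761.1 CPM in controls (log2 -0.58, adjusted p = 0.0375). PFKM fell by 0.57 on the log2 scale with the smallest error of the line, SE 0.0701. PDK1, the kinase that shuts pyruvate dehydrogenase, had 15.2 and 19.5 CPM, against 39.2 and 35.8 CPM in controls (log2 -1.11, SE 0.197, adjusted p = 0.000112). PDK3, another kinase of that enzyme, was at 0.01 on the log2 scale and overlapped between the groups, and the PDK3 to PDK1 ratio per kilobase was 5.04 to 6.34 in knockdown libraries and 2.37 to 2.80 in controls. The lactate exporter SLC16A3 had 9.65 and 7.51 CPM, against 17.8 and 18.0 CPM in controls (log2 -1.06, adjusted p = 6.86e-06). In each of the called genes among these the 2 knockdown libraries lay below both controls. Here and in the other lines, called genes were picked by a test of the same libraries. Such separation is therefore a description and no further support.

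The mitophagy receptors fell in MOLT4. BNIP3 had 14.4 and 11.7 CPM in knockdown libraries, against 45.5 and 48.7 CPM in controls, or 0.276-fold (log2 -1.86, SE 0.404, adjusted p = 0.00123). Its relative BNIP3L (NIX) had 85.5 and 89.2 CPM, against 150.4 and 152.8 CPM in controls (log2 -0.80, adjusted p = 0.000744). EGLN1 had 16.3 and 17.6 CPM, against 34.1 and 34.3 CPM in controls (log2 -1.01, adjusted p = 0.0231). ADM was barely detected, with 2 and 1 counts in knockdown libraries and 11 and 8 counts in controls. HIF1A overlapped between the groups, at 61.2 and 74.9 CPM in knockdown libraries and 79.3 and 74.4 CPM in controls, and so did VEGFA, the angiogenic growth factor, at 138.0 and 144.7 CPM against 145.5 and 136.9 CPM. Leaving out any 1 MOLT4 library leaves a group of 1 library. The calls of HK2, PGK1, EGLN1 and ADM held in no such fit.

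**Figure D3:**
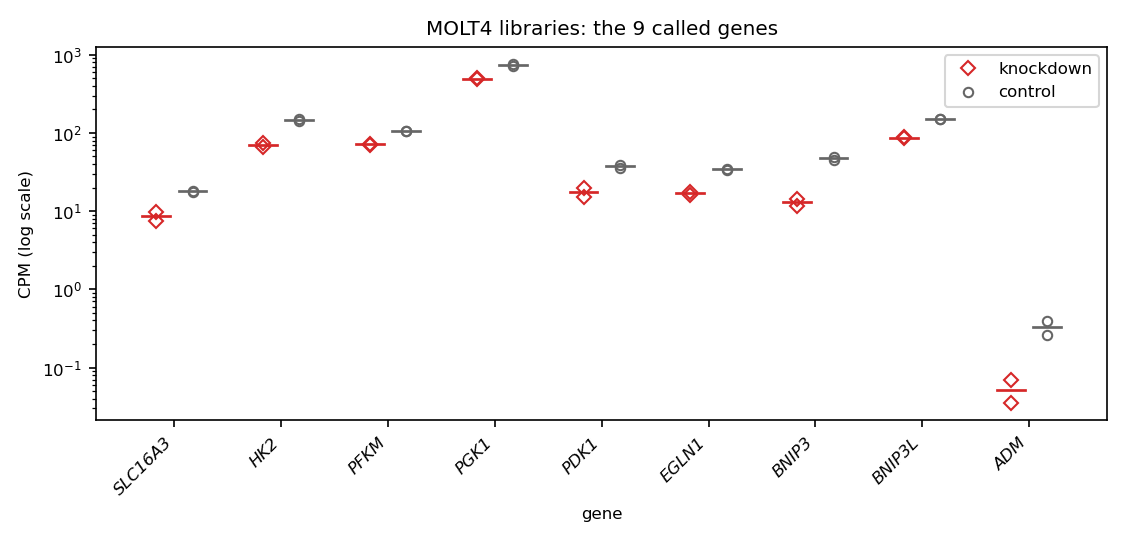
CPM of the 9 called genes in each MOLT4 library on a log scale, with knockdown libraries as diamonds, controls as circles and bars at the group means. In all 9 genes, picked by a test of these same libraries, both knockdown libraries lie below both controls. Levels run from PGK1 at 491.0 to 761.1 CPM down to ADM at under 0.4 CPM.

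Without THP6 knockdown 2, 10 further genes were called lower in MOLT4: SLC2A1, HK1, GPI, ENO1, PFKFB3, PFKFB4, NDRG1, KDM3A, P4HA1 and MXI1. SLC2A1 had 52.4 and 51.7 CPM in knockdown libraries, against 76.6 and 81.3 CPM in controls (log2 -0.60, adjusted p = 7.22e-06, and 0.386 with all libraries). PFKFB3 had 58.4 and 57.5 CPM, against 97.1 and 102.7 CPM (log2 -0.78, adjusted p = 4.53e-09, and 0.117 with all libraries). PFKFB4 stood at 5.17 and 5.01 CPM, against 13.5 and 15.3 CPM in controls. The 2 genes called higher in that fit were late enzymes: PKM, the pyruvate kinase, at 822.4 and 756.8 CPM against 636.1 and 659.7 CPM, and PGAM1, phosphoglycerate mutase, at 670.4 and 658.6 CPM against 546.8 and 567.3 CPM.

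Among other genes of the pathway in MOLT4, 5 of 59 tested were called higher and 8 lower, shares near the 8.88% and 10.3% of all tested genes. The carriers that bring pyruvate into mitochondria were among those higher, MPC1 at 0.45 on the log2 scale (adjusted p = 0.0471) and MPC2 at 0.46 (adjusted p = 0.00917), with BSG, the chaperone of lactate transporters, at 0.42. EPAS1, which encodes the HIF2 alpha subunit, fell to 8.86 and 8.07 CPM in knockdown libraries, against a control mean of 14.3 CPM (SD 0.414, n = 2). Of the 30 other hypoxia-induced genes 0 were called higher and 6 lower, and without THP6 knockdown 2 the counts were 3 and 13.

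In CCRF-CEM VEGFA, SLC16A3, HK1, ALDOC, PFKM and ADM were lower in knockdown libraries. None of the 39 genes rose and 6 fell, where 3% of all tested genes rose and 5.43% fell, and the median of the list was -0.22 beside 0 for all genes. VEGFA had 24.99, 21.83 and 24.12 CPM in knockdown libraries, against 51.9, 55.3 and 52.4 CPM in controls (log2 -1.17, SE 0.165, adjusted p = 1.31e-05). SLC16A3 had 17.2, 16.1 and 17.7 CPM, against 32.7, 34.6 and 35.0 CPM (log2 -1.01, SE 0.119, adjusted p = 8.21e-07). HK1 had 157.7, 147.7 and 160.6 CPM, against 222.5, 239.4 and 236.8 CPM (log2 -0.58, adjusted p = 0.00185). In these genes every knockdown library lay below every control. ALDOC, the brain-type aldolase, fell by 0.67 and PFKM by 0.24 on the log2 scale. ADM had 3, 0 and 1 counts in knockdown libraries, against 35, 13 and 36 counts in controls (adjusted p = 5.75e-05). The ALDOC call was lost when any 1 CCRF-CEM library was left out, and the PFKM call without knockdown 2.

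Without THP6 knockdown 2, 16 of the 39 fell in CCRF-CEM and 0 rose, where 6.99% of all genes fell and 5.43% rose; a fit of the CCRF-CEM libraries alone called 18 lower and 0 higher, where 14.2% of all genes were called. The added genes included SLC2A3, at 28.7, 26.6 and 29.3 CPM in knockdown libraries against 51.1, 43.8 and 46.9 CPM in controls, and PGK1, at 1006, 970.5 and 1009 CPM against 1410, 1337 and 1441 CPM. NDRG1, a stress-response gene, stood at 27.2, 25.5 and 25.9 CPM against 41.4, 45.6 and 39.9 CPM. With all libraries these 3 had adjusted p-values of 0.348, 0.0605 and 0.0817. Of the 16 genes lower in CCRF-CEM, 12 (75%) were also lower in MOLT4, where 19 of all 39 were and the 12 made up 63.2%. In the fit of all libraries the shared genes were PFKM, SLC16A3 and ADM, 3 of 6 and 3 of 9. The overlap over all tested genes was not counted. EPAS1 averaged 21.5 CPM in CCRF-CEM knockdown libraries and 87.7 CPM in controls (SD 4.38 and 7.02, n = 3 each; log2 -2.03, adjusted p = 2.08e-12), the largest change among the other genes of the pathway in that line.

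Mac1 went the other way. Its knockdown libraries had more RNA of ALDOC, ENO2, PGK1, CA9, the collagen prolyl hydroxylases and BNIP3L than its controls. Of the 39 genes 9 rose and 0 fell, where 5.54% of all tested genes rose and 2.35% fell, and the median of the list was 0.28 beside 0 for all genes. Leaving out THP6 knockdown 2, 22 rose and 1, HK2, fell, where 9.87% of all genes rose and 3.81% fell. A fit of the Mac1 libraries alone called 19 higher and 4 lower, where 18.1% of all genes were called.

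CA9 had 72.4 and 103.5 CPM in Mac1 knockdown libraries, against 3.67 and 9.67 CPM in controls, or 13.2-fold (log2 3.72, SE 0.471, adjusted p = 8.58e-06). Exons of CA9 overlap ARHGEF39, which is read from the opposite strand. ALDOC had 308.1 and 392.6 CPM, against 55.2 and 87.1 CPM, or 4.92-fold (SE 0.272 on the log2 scale, adjusted p = 1.27e-06). ENO2 had 126.9 and 162.4 CPM, against 45.8 and 60.5 CPM (log2 1.44, SE 0.329, adjusted p = 0.00505). The groups were separate in all 3 genes, and in fold terms the controls differed among themselves more than the knockdown libraries did. Per kilobase the ALDOC to ALDOA ratio was 0.180 to 0.206 in knockdown libraries and 0.0415 to 0.0582 in controls, and the ENO2 to ENO1 ratio 0.0252 to 0.0315 and 0.0113 to 0.0137. The ubiquitous isozymes ALDOA and ENO1 thus remained far above the minor ones in both groups.

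KDM3A, a histone demethylase induced by hypoxia, had 160.5 and 163.0 CPM in Mac1 knockdown libraries, against 61.8 and 64.9 CPM in controls (log2 1.35, SE 0.255, adjusted p = 0.000744). P4HA2 and P4HA1, which hydroxylate collagen prolines, rose by 1.29 and 0.77 on the log2 scale. BNIP3L had 70.8 and 70.6 CPM, against 28.5 and 37.8 CPM (log2 1.09, adjusted p = 6.79e-05). PGK1 had 1856 and 1847 CPM, against 1106 and 1203 CPM (log2 0.68, adjusted p = 0.0311). PDK3 rose by 0.42, and PDK1, at 39.3 and 39.1 CPM against 24.6 and 27.1 CPM, had an adjusted p of 0.0517. Leaving out 1 Mac1 library leaves a group of 1 library. The calls of PDK3 and PGK1 held in no such fit, and those of ENO2 and P4HA1 did not hold without control 1.

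Other HIF-responsive genes of the list were divided in Mac1. PDK1, ANKRD37, NDRG1 and PFKFB3 were called higher without THP6 knockdown 2, at 0.62, 0.53, 0.34 and 0.29 on the log2 scale, whereas SLC2A1, HK2, EGLN1 and VEGFA were called higher in neither fit. SLC2A1 had 310.7 and 338.3 CPM in knockdown libraries, against 303.3 and 332.3 CPM in controls. HK2 had 92.3 and 106.6 CPM, against 125.7 and 135.6 CPM; EGLN1 had 49.9 and 48.0 CPM, against 55.8 and 61.6 CPM; and VEGFA had 49.3 and 55.0 CPM, against 59.9 and 66.6 CPM. SLC2A1 thus overlapped between groups, and the other 3 were lower in both knockdown libraries than in both controls without passing the test in the fit of all libraries. THP6 knockdown 2, in contrast, was the highest library of its line for all 4.

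**Figure D4:**
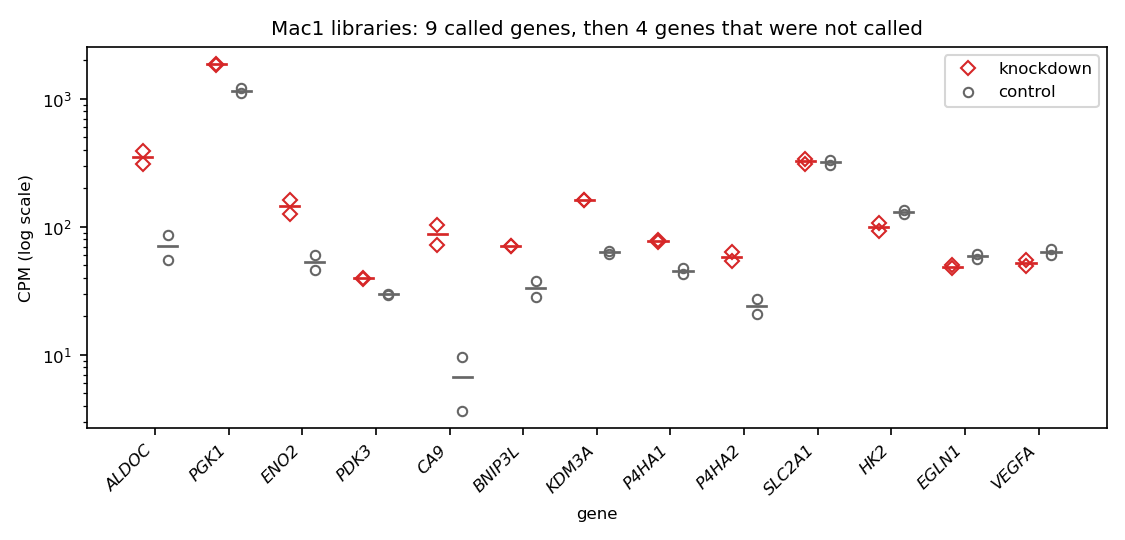
CPM of the 9 called genes and of SLC2A1, HK2, EGLN1 and VEGFA in each Mac1 library on a log scale, with knockdown libraries as diamonds, controls as circles and bars at the group means. The 9 genes to the left lie higher in both knockdown libraries, most widely CA9 at 72.4 and 103.5 CPM against 3.67 and 9.67 CPM; the 4 to the right do not.

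The mitochondrially encoded share of counts was 0.796% and 0.626% in Mac1 knockdown libraries, against 1.06% and 1.23% in controls. As said, the Mac1 controls sit in the last columns of the deposited table, apart from the Mac1 knockdown libraries in positions 12 and 13. Whether that order marks a separate run is not given, and in Mac1 any such run and the knockdown cannot be told apart. Among other genes of the pathway 9 of 59 were called higher in Mac1 and 0 lower. The glycogen branching enzyme GBE1 averaged 100.6 CPM in knockdown libraries and 40.2 CPM in controls (SD 0.453 and 5.22, n = 2 each; log2 1.32, adjusted p = 6.44e-06). Phosphoglucomutase PGM1, which links glycogen to glycolysis, averaged 139.1 and 77.4 CPM (log2 0.85, adjusted p = 4.29e-08). EPAS1 rose to 2.36 CPM in knockdown libraries, against 0.753 CPM in controls.

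The difference between Mac1 and the other lines was tested itself, as the Mac1 response minus the mean response of H9, MyLa, CCRF-CEM, MOLT4 and THP6. Of the 39 genes 7 were higher in Mac1 and 0 lower, where 4.11% of all tested genes were higher and 1.75% lower. They were ALDOC (2.25 on the log2 scale, adjusted p = 8.82e-06), ENO2 and BNIP3L (1.16 each), KDM3A (0.98), PDK1 (0.80), PGK1 (0.79) and P4HA1 (0.75). CA9 and ADM could not be tested in this way, since both had 0 counts in every MyLa library. Nor could P4HA2, which had 0 counts in every CCRF-CEM library. Without THP6 knockdown 2 the count was 22, where 7.36% of all genes were higher, and 2 or 3 were left when a Mac1 library was left out.

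A joint test of any difference in response among the 6 lines other than SUP-T1 called 35 of the 39 genes, where 25% of all tested genes were called. The fit without THP6 knockdown 2 also called 35, of which 34 were shared, where 29.7% of all genes were called. The 4 genes not called with all libraries were LDHB (adjusted p = 0.619), EGLN3, HIF1A and ANGPTL4. Of the 22 genes higher in Mac1 without THP6 knockdown 2, 9 (40.9%) were lower in MOLT4, where 19 of all 39 were. The 9 were GPI, PGK1, ENO1, PDK1, PFKFB3, BNIP3L, NDRG1, KDM3A and P4HA1. In the fit of all libraries the genes so shared were PGK1 and BNIP3L. The overlap over all tested genes was not counted, so this is a description of the list. With lines as replicates, the mean response over 6 lines was called in 0.0222% of all genes (5 of 22543) by edgeR. None of the 39 was among them, 4 having an unadjusted p under 0.05, and at that background the count says nothing particular of the list.

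H9 and MyLa had 0 called genes of the list in the fit of all libraries, and at their low backgrounds that says nothing particular of the list. In H9 0 of the 39 genes were called, 6 at an unadjusted p under 0.05, where 0.852% of all tested genes were called higher and 0.965% lower. DESeq2 called 1 of the 39 and 3.08% of all genes, and a fit of the H9 libraries alone 2 of the 39 and 1.81%. The lowest adjusted p was that of ADM, 0.0699, with 17, 13 and 17 counts in knockdown libraries against 42 and 59 in controls. In the fit without THP6 knockdown 2, PKM and NDRG1 were called higher, and SLC2A3, VEGFA, ADM and EGLN3 lower, 2 and 4 genes where 1.76% and 2.17% of all genes were called. SLC2A3 in H9 had 40.2, 29.7 and 41.5 CPM in knockdown libraries, against 60.8 and 49.7 CPM in controls. In MyLa 0 were called, 2 at an unadjusted p under 0.05, where 1.02% of all genes were called higher and 0.861% lower. In MyLa DESeq2 called 0 of the 39 and 2.9% of all genes, and a fit of its libraries alone 2 of the 39 and 8.84%. ANGPTL4, an inhibitor of lipoprotein lipase, had the lowest adjusted p, 0.277, on 5 counts or fewer in every library. Leaving out THP6 knockdown 2, KDM3A alone was called, at 49.4, 52.5 and 56.5 CPM in MyLa knockdown libraries against 36.2, 39.2 and 37.7 CPM in controls, where 1.88% of all genes were called higher and 1.99% lower. Of other genes of the pathway, 1 was called higher and 1 lower in each of these lines, among them EPAS1 in H9, at 9.44 CPM in knockdown libraries and 6.15 CPM in controls.

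In SUP-T1 the libraries labelled knockdown, which have more GATA3, were set against those labelled control. Of the 39 genes 2 were higher and 7 lower, where 8.14% of all tested genes were higher and 8.57% lower. Without THP6 knockdown 2 the counts were even, 8 higher and 9 lower, where 10.8% of all genes were higher and 11.3% lower, and a fit of the SUP-T1 libraries alone gave 9 and 9, where 28.4% of all genes were called. HK2 had 121.2, 112.8 and 136.6 CPM in libraries labelled knockdown, against 59.1, 67.9 and 64.2 CPM in those labelled control (log2 0.95, adjusted p = 0.0137), and PFKM was 0.78 higher. BNIP3L had 61.0, 67.4 and 59.3 CPM, against 120.6, 108.5 and 101.4 CPM (log2 -0.81, adjusted p = 5.85e-05). EGLN3 had 13.5, 13.7 and 12.4 CPM, against 23.5, 25.8 and 25.1 CPM (log2 -0.91), and ADM had 21, 15 and 15 counts against 87, 108 and 70. PKM, VEGFA, KDM3A and P4HA1 were lower, with log2 fold changes of -0.67 to -0.52. The groups did not overlap in these genes. The call of KDM3A was lost in 5 of the 6 fits that leave out 1 SUP-T1 library, and those of P4HA1, VEGFA and HK2 in some of them. Of 59 other genes of the pathway 3 were higher and 6 lower, shares near those of all genes, among them PGM1 at -0.73 and the cyclin CCNG2 at -1.20 on the log2 scale. HK2 and PFKM, higher here by the labels, fell in MOLT4, and BNIP3L and ADM, lower here by the labels, fell there too.

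Control libraries showed how unevenly the lines used these genes. Mac1 controls had the highest level of the 7 lines for GAPDH (7422 CPM), PKM (5600 CPM), ENO1, LDHA, SLC2A1, SLC2A3, PFKFB3 and HK1, among others. SLC2A3 ran from 6.27 CPM in SUP-T1 to 169.7 CPM in Mac1. SLC16A3 ran from 0.347 CPM in MyLa to 185.8 CPM in Mac1, a 536-fold range. BNIP3 was at 0.871 CPM in SUP-T1 and at 69.0 CPM in H9, and VEGFA at 22.7 CPM in MyLa and 369.3 CPM in SUP-T1. LDHB was lowest in H9, at 276.1 CPM, and highest in CCRF-CEM, at 1495 CPM. PGK1 varied least among these, from 741.9 CPM in MOLT4 to 1396 CPM in CCRF-CEM. P4HA2 averaged 24.0 CPM in Mac1 and 13.2 CPM in MyLa controls and was at 0 to 0.128 CPM in the other 5 lines. Per kilobase of exon GAPDH ranked first of the 39 in the controls of all 7 lines, from 1116 CPM per kilobase in H9 to 2490 in Mac1.

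**Figure D5:**
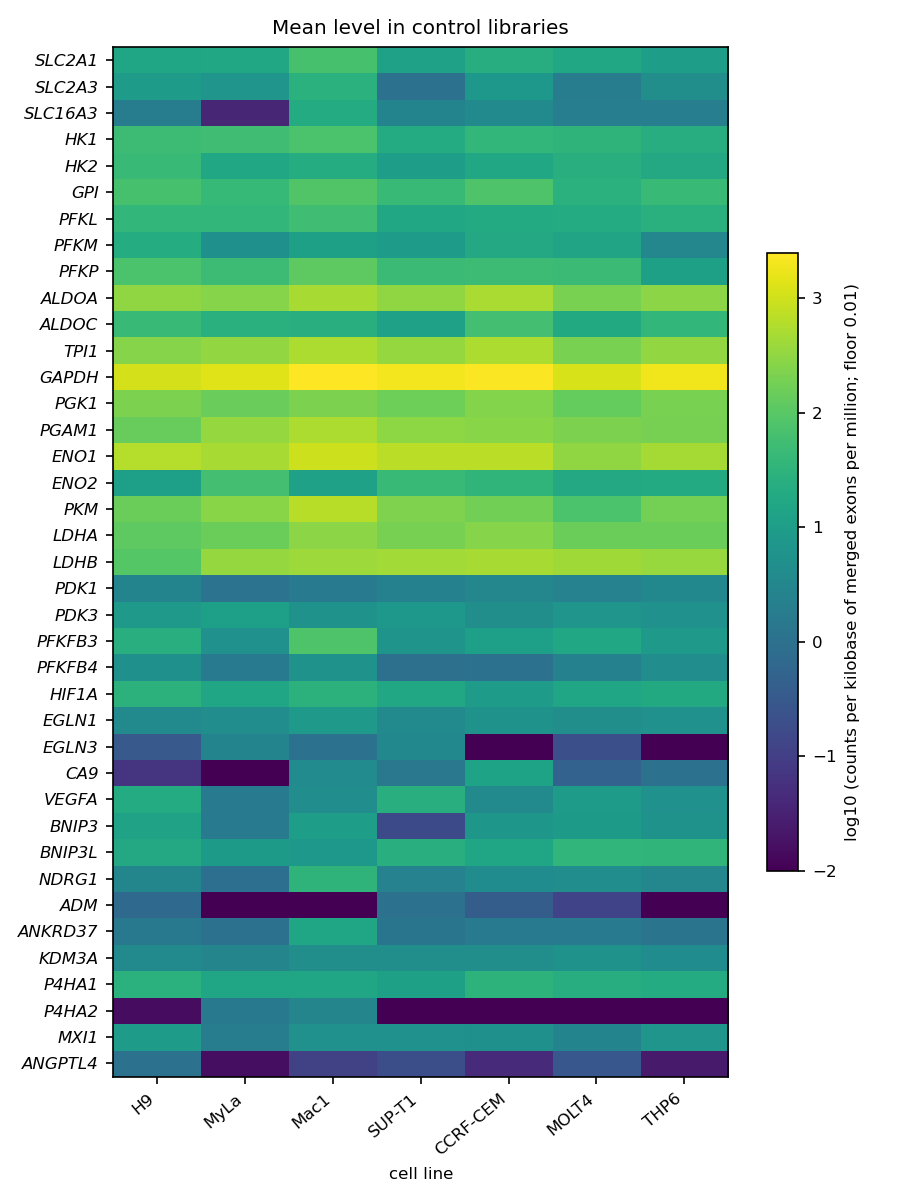
Mean level of the 39 genes in control libraries of each line, as log10 of CPM per kilobase of merged exons. Enzymes of the lower glycolytic pathway are bright in every line; CA9, EGLN3, P4HA2 and ADM range down to the floor of 0.01, and SLC16A3 and ANGPTL4 come close to it in MyLa.

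Whether T-ALL lines differ from CTCL lines in controls was tested with each line as 1 sample, 4 against 3. The 4 T-ALL lines include the SUP-T1 libraries labelled control, whose label GATA3 goes against; without SUP-T1 the test also called 0 genes of the list. Of 38 genes tested, 0 were called and 4 had an unadjusted p under 0.05, where 0.0754% of all genes were higher in T-ALL and 0.205% lower. P4HA2 was dropped by the count filter, since too few lines had it. It stood at 24.0 CPM in Mac1 and 13.2 CPM in MyLa and at most at 0.128 CPM in any other line. Its difference is therefore not among those below. PFKL, the liver-type phosphofructokinase, came nearest, at -1.07 on the log2 scale (SE 0.241, adjusted p = 0.144), and DESeq2 called 2 genes lower, where it called 8% of all genes. The 6 largest differences were those of ANKRD37 (-2.03), SLC2A3 (-1.92), PFKFB3 (-1.85), NDRG1 (-1.77), CA9 (1.61) and SLC16A3 (-1.53), with standard errors of 0.788 to 2.15 and adjusted p-values of 0.347 to 0.795. Without H9, 1 gene was called lower in T-ALL.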

How the data were processed

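Polyadenylated RNA was measured in 36 libraries of 7 lines, grown in RPMI with 10% fetal bovine serum; 50 ng of total RNA went into each library, per the labels' protocols. The deposited values are expected counts per gene, made by the authors with cutadapt 2.3, STAR 2.7.8a and RSEM 1.3.3 on GRCh38, per the submitters' processing notes. All values were already whole. No source used here gives the annotation release or strand setting; 58516 (96.5%) of 60628 identifiers are in GENCODE 29, which gave exon lengths and overlaps.

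The genes, lists and tests were chosen with earlier results of these data known. All members are accounted for; called members of a line are named (the THP6 enzymes by count), or the one with the lowest p where none is, and, at baseline, the 6 largest differences. Groups of line and arm came from the titles; those of SUP-T1 were used because its cell line field carries running numbers. edgeR 4.0.16 (R 4.3.3) fitted 1 mean per group to all libraries with TMM scaling, filterByExpr and quasi-likelihood F tests, adjusted by Benjamini-Hochberg over all tested genes at 0.05. It recovered known changes in simulated data, which had the same spread for every gene and no outlying library such as THP6 knockdown 2. Tests over lines used counts summed per line and arm, with line as covariate. Alternatives were DESeq2 1.42.0, DESeq2 size factors, no filter, 10 counts in 2 libraries, a replicate block, separate fits and leaving out libraries.

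Replicate numbers were checked as a pairing. Over 17 same-numbered pairs, the correlation of deviations from the group means ran from -0.143 to 0.263. Every pair was over 0.1 in MyLa (0.136 to 0.213) and in H9 (0.102 and 0.263, with knockdown 3 unpaired). Only in MyLa were the numbers taken to pair the libraries. The MyLa results above are from the fit without that pairing, which called 397 of 21138 genes. With the replicate block 243 were called. The replicate block changed no call of a member in either line. Values of some genes of the marker and pathway lists are not reported here.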

Additional observations from a re-analysis of the deposited data

Results flagged for a closer look

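The response of these genes to GATA3 knockdown differed between lines. Tested as the Mac1 response minus the mean response of H9, MyLa, CCRF-CEM, MOLT4 and THP6, the difference was 2.25 on the log2 scale for ALDOC, 1.16 for ENO2, 1.16 for BNIP3L, 0.98 for KDM3A, 0.80 for PDK1, 0.79 for PGK1 and 0.75 for P4HA1. For these 7 genes the 2 Mac1 knockdown libraries lay above both Mac1 controls. The genes were picked by a test of the same libraries, so that separation is no further support. In the joint test of any difference among 6 lines, 35 of the 39 genes passed, where 25% of all tested genes did. No group holds more than 3 libraries, so no single library was tested for lying far from the others.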

How the results depend on the processing

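Leaving THP6 knockdown 2 out of the fit, chosen after the data were seen, moved the count of called genes in each other line. It was 21 in MOLT4 (9 with all libraries), 16 in CCRF-CEM (6), 23 in Mac1 (9) and 17 in SUP-T1 (9). It was 6 in H9 (0), 1 in MyLa (0) and 22 for Mac1 against the other lines (7). THP6 itself, with 30 called in the fit of all libraries, then has 1 knockdown library, which cannot be tested. Shares of all genes for this fit and for each line alone are given above. A fit of each line alone gave 24 in MOLT4, 18 in CCRF-CEM, 23 in Mac1, 18 in SUP-T1, 2 in H9, 2 in MyLa and 0 in THP6, where GATA3 was at -1.04 and no longer called. With no filter 19 were called in MOLT4, 13 in CCRF-CEM, 19 in Mac1, 15 in SUP-T1, 5 in H9, 2 in MyLa and 11 for Mac1 against the other lines. Of 37428 genes that fit called 1665 in CCRF-CEM, 1952 in Mac1, 3341 in SUP-T1, 568 in H9 and 535 in MyLa. The totals for MOLT4 and for Mac1 against the other lines are not given. DESeq2 called 1 in H9 and 2 at baseline. Fits that leave out 1 library of the line called 5 in MOLT4, 4 to 5 in CCRF-CEM, 5 to 7 in Mac1, 6 to 9 in SUP-T1, 0 to 36 in THP6, 2 to 3 for Mac1 against the other lines and 30 to 37 among 6 lines. The mean response stayed at 0, and baseline was at 0 or, without H9, 1. Of the 30 genes called in THP6, 8 turned negative without knockdown 2, the other value being that without knockdown 1: SLC2A1 (-0.12 and 3.27), HK1 (-0.0595 and 0.96), HK2 (-0.14 and 2.26), PFKL (-0.0078 and 0.76), NDRG1 (-0.41 and 1.76), EGLN1 (-0.19 and 2.06), MXI1 (-0.23 and 1.83) and, for BNIP3 in THP6, -0.40 and 2.303. The cause was not tested for the separate and unfiltered fits. With the replicate block 14 genes were called in THP6, 8 in CCRF-CEM and 25 among 6 lines. In CCRF-CEM that fit called 1429 of 21138 genes, and the totals for THP6 and the 6 lines are not given. With the Mac1 numbers crossed 9 were called in Mac1, where 1459 of 21138 genes were. Groups of 2 or 3 libraries limit all of these counts. Leaving out 1 library of MOLT4, of Mac1 or of the THP6 knockdown leaves a group of 1, whose spread rests on the other groups.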
